A study of Rattus norvegicus with 24 samples.

Results

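Cardiac RNA of rats that received fugitive oil combustion particles carrying soluble zinc (PM-HD) was compared with that of rats that received Mount St. Helens volcanic ash (MSH), a particle with no soluble zinc or other metals. The comparison was made over the 4 PM-HD and 4 MSH arrays, 8 of the 24 arrays of the series, and over all probe sets of the rat expression array except the controls of the manufacturer. Male Wistar Kyoto rats, 12 to 14 weeks old at the start, received a weekly dose into the trachea (1 ml/kg) while anesthetized. PM-HD was the whole saline suspension, with its insoluble components, 14.5 μg of soluble zinc and 3.0 μg of soluble nickel per mg of particles. MSH was given in saline at the same particle mass. The text of the study gives 8 weekly instillations and necropsy 48 hr after the last of them for the hearts on the arrays, whereas the array labels give no number of weeks. The other groups were a lower dose of the same particles (PM-LD), the soluble leachate of PM-HD (PM-L), zinc sulfate, and saline. Each array held the left ventricle plus septum of 1 rat. The 2 kinds of particles differ in source as well as in soluble zinc and nickel, so that zinc, nickel, and other properties of the particles cannot be told apart here.

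Metals that dissolve from particles in the lung can enter the circulation and reach the heart. In mammalian cells, free zinc is sensed by the transcription factor MTF-1, which binds metal response elements and switches on metallothioneins, the small proteins that bind excess zinc, and the zinc exporter Slc30a1. Whether such a zinc response marked the PM-HD hearts was therefore the most direct question of the comparison. The sequences before the start sites of Mt1 and Mt2A are shown because they carry the sites through which zinc is known to act. They are the 250 bases before each start site in the RefSeq annotation of assembly GRCr8, at chr19:10832976-10833225 for Mt1 and chr19:10838709-10838958 for Mt2A, both on the minus strand and given 5′ to 3′. Capitals mark the core of the metal response element, searched as TGCACNC or TGCGCNC on both strands.
Mt1: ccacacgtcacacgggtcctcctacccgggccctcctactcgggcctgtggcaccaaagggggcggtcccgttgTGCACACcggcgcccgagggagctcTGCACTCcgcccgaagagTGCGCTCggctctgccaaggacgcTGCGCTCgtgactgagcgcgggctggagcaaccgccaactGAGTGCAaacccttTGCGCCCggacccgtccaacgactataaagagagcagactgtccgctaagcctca
Mt2A: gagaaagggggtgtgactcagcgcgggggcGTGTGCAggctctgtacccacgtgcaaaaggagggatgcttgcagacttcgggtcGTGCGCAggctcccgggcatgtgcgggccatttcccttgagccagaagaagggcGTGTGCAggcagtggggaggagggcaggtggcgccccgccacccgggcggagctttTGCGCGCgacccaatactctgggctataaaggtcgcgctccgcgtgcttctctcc
The Mt1 window held 6 such matches and the Mt2A window 4, against 3 for Mt3 and 2 for Slc30a1. Of 27457 rat windows of the same length, 21.2% held at least 1 match and 5.13% at least 2. A match is a description of the letters and not of a bound site.

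Of 15866 probe sets, 270 were higher in PM-HD than in MSH (1.70%) and 229 were lower (1.44%) at the thresholds of the study, an unadjusted p under 0.05 in the moderated test of limma and a difference of more than 25% in either direction. Below, passed means past these thresholds. The study applied them to robust multiarray average (RMA) values and not to the signals used here. Counts here therefore cannot be set beside those of the study. In all, 499 passed (3.15%), and 546 (3.44%) had an unadjusted p under 0.05. None had an adjusted p under 0.05 (0.00%, limma with Benjamini-Hochberg adjustment over all probe sets), and the lowest adjusted p was 1.000. Without MSH replicate 3, 2 probe sets had an adjusted p under 0.05 in limma. Both were dim, with mean signals of 29 and 21.3 against a median of 241.6 over all tested probe sets. In genes with 1 probe set each, the brightest, 151 of 10411 passed with a higher level (1.45%) and 133 with a lower one (1.28%). All genes named below are therefore candidates at an unadjusted threshold, and a short list with no member or 1 member that passed is not read as a result about that list.

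Most of the differences lay among dim probe sets. Of the 499 that passed, 411 (82.4%) had a mean signal below 241.6, the median of all tested probe sets. Signal is the linear intensity that the array software gives for a probe set. Of the 117 that passed with more than a 2-fold difference, 4 lay above that median. The median fold was 1.67 among probe sets higher in PM-HD and 0.584 among those lower. Among the 6010 genes above the median signal, called bright here, 35 were higher (0.582%) and 26 lower (0.433%), together 1.01%, against 5.07% of dim genes in either direction, and 90% of bright genes lay between -0.28 and 0.28 on the log2 scale. The moderated standard error (SE) of a log2 fold change had a median of 0.20 in bright and 0.32 in dim genes.

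**Figure D1:**
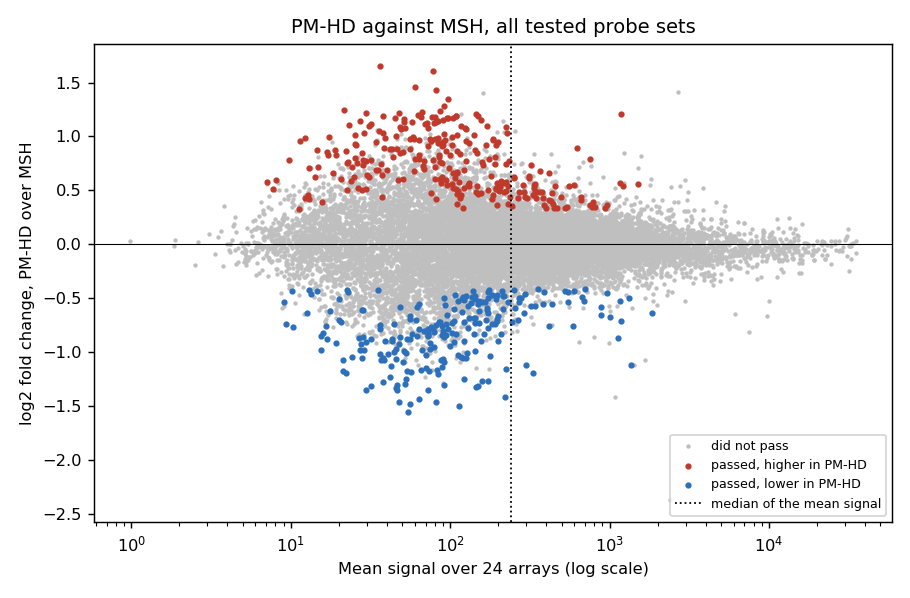
The log2 fold change of PM-HD over MSH (vertical axis) against the mean signal over 24 arrays (horizontal log axis) for 15866 probe sets. Of the 499 coloured points that passed, 411 lie left of the dotted line at the median signal of 241.6.

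Gapdh control probe sets at the 3′ and 5′ ends give a ratio that rises as RNA degrades, and this ratio was 2.46, 1.48, 3.59, and 4.81 in PM-HD replicates 1 to 4, against 3.31, 2.36, 2.02, and 3.15 in MSH replicates 1 to 4 (exact permutation test, two-sided, p = 0.686). The median signal was 218 to 256 in PM-HD and 241 to 261 in MSH. Correlations of log2 values between PM-HD and MSH arrays, 0.9396 to 0.9609, overlapped with those within the PM-HD group (0.93 to 0.9535) and within the MSH group (0.9509 to 0.9659). PM-HD replicate 4 stood apart in mitochondrial transcripts. The summed signal of 36 electron transport and ATP synthase genes was 279672 there, against 419288 to 453631 in the other PM-HD arrays and 388529 to 448837 in MSH. Without this array 619 probe sets passed. The ratio was above 3 in PM-HD replicates 3 and 4 and MSH replicates 1 and 4. In the fit, saline and zinc sulfate had 1 such array each. Without all of these, 2 hearts each of PM-HD and MSH and 3 each of saline and zinc sulfate remained. Then 949 passed, of which 190 were among the 499. Markers of ventricular cardiomyocytes were bright on all 8 arrays (summed signal of 14 genes 240062 to 310781 in PM-HD and 270725 to 307469 in MSH, none passed). Those of lung epithelium were dim (8 genes, 436 to 679 and 459 to 764).

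The metallothioneins did not separate the 2 groups. Mt1, an inducible isoform with the 6 matches shown above, had signals of 14.6, 37.6, 95.5, and 45.9 in PM-HD and of 17.3, 10.3, 65.0, and 23.9 in MSH. The ranges overlapped almost fully, and at this brightness the probe set lay near the floor of the array. Its log2 fold change was 0.57 (95% interval -0.39 to 1.52). Mt2A, the isoform with the brighter probe set, had 819, 529, 536, and 735 in PM-HD, against 175, 683, 929, and 783 in MSH. All 4 PM-HD hearts lay inside the MSH range, and MSH replicate 1 was by far the lowest of the 8. The log2 fold change of 0.27 (-0.68 to 1.23) became -0.29 without that array. Mt3, the isoform known best from brain, gave 0.19 (-0.67 to 1.05) and -0.23 without PM-HD replicate 4, its brightest array at 278. Mtf1, the metal sensor itself, averaged 562 ± 57.5 in PM-HD and 577 ± 29.5 in MSH (SD, n = 4 each, log2 fold change -0.03, 95% interval -0.45 to 0.38), and its dim second probe set gave -0.73 ± 0.39 (SE, 37.5 ± 15.1 in PM-HD and 77.8 ± 21.4 in MSH, not passed). None of the 4 genes passed in PM-HD against MSH, and the intervals of the 3 metallothioneins reach above a 2-fold higher level in PM-HD. Against saline, Mt1 was 0.74 ± 0.45 (SE) in PM-HD, 0.18 ± 0.45 in MSH, 0.21 ± 0.54 in PM-LD, and 0.26 ± 0.54 in PM-L. It passed only in zinc sulfate (0.96 ± 0.45). Mt2A was 0.11 ± 0.45 in PM-HD, -0.16 ± 0.45 in MSH, and 0.71 ± 0.45 in zinc sulfate. It was 0.55 ± 0.39 in PM-LD and 0.64 ± 0.39 in PM-L, and passed in no group.

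**Figure D2:**
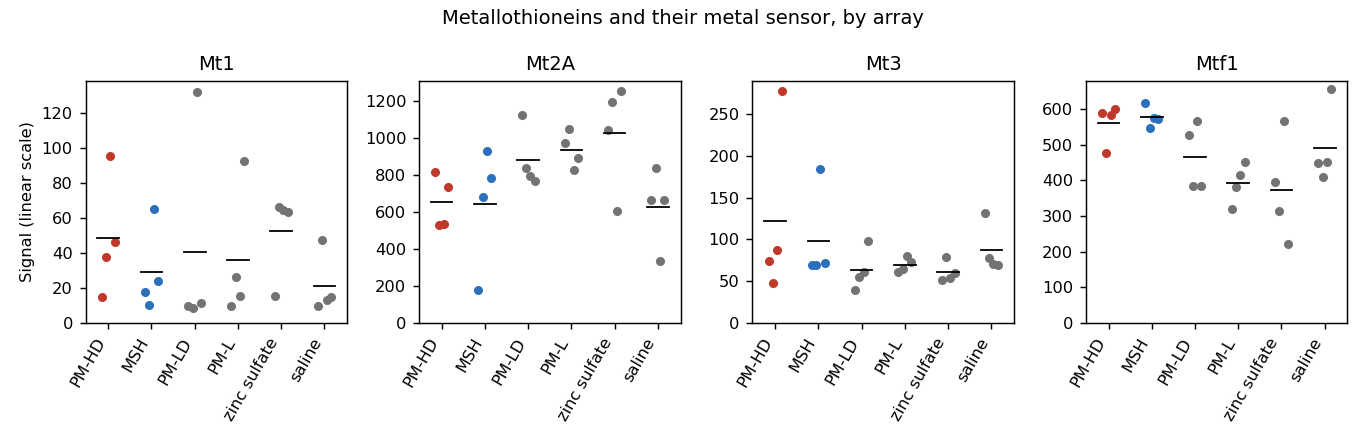
Signal (linear vertical axis) of Mt1, Mt2A, Mt3, and Mtf1 on every array of the 6 groups. Points are arrays, 4 per group, and bars are group means; PM-HD and MSH overlap in each panel.

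Of 24 zinc transporters listed, 17 were measured and none passed, against 2.73% of all genes, with a median log2 fold change of 0.07 against -0.001 over all genes. Slc30a1, the exporter under MTF-1 control, averaged 166 ± 24.1 in PM-HD and 184 ± 35.3 in MSH (log2 fold change -0.07 ± 0.17, SE). Against saline Slc30a1 was 0.15 in PM-HD, 0.21 in MSH, 0.13 in zinc sulfate, 0.41 in PM-LD, and 0.40 in PM-L. Slc30a9 had 804, 819, 814, and 757 in PM-HD and 922, 888, 828, and 884 in MSH, so that all 4 PM-HD hearts were lower, but by little (-0.16, 95% interval -0.48 to 0.17). The same held for 1.11% of bright genes, and the dim second probe set of Slc30a9 gave 0.04 ± 0.31. Slc30a5, which loads zinc into the secretory pathway, leaned to a higher level in PM-HD at 0.39 (-0.35 to 1.13), with 312 ± 25.2 in PM-HD and 246 ± 46.9 in MSH. The bright importers Slc39a1 (0.24, -0.24 to 0.71), Slc39a7 (0.04, -0.32 to 0.40), Slc39a10 (0.24, -0.26 to 0.73), Slc39a13 (-0.03, -0.37 to 0.30), and Slc39a14 (0.09, -0.34 to 0.51) had intervals on both sides of 0, as had Slc30a3 (-0.22, -0.60 to 0.15). Slc30a2, which moves zinc into vesicles, gave 0.07 (-0.36 to 0.51). Of 14 genes of iron and copper handling, none passed either (median -0.10).

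Jun, a bright gene and a component of the AP-1 transcription factor that responds to growth and stress signals, was lower in PM-HD. Its signal was 616, 670, 787, and 713 in PM-HD, against 1040, 870, 1210, and 1039 in MSH. Every PM-HD heart lay below every MSH heart, as did 1.15% of all probe sets. Jun was among the genes named for this lack of overlap. That lack fixes the exact permutation test (two-sided) at p = 0.0286, the smallest that 4 against 4 arrays allow, so the p adds no evidence. Jun gave -0.58 ± 0.14 (SE) on the log2 scale and passed without any 1 array and over the arrays with a Gapdh ratio up to 3. A further probe set for Jun passed at -0.56 ± 0.20, and the last gave -0.41 ± 0.20 and did not pass. Set against saline, Jun was -0.61 ± 0.14 in PM-HD, where it passed, and -0.03 ± 0.14 in MSH, comparisons that share the arrays above. It was -0.33 ± 0.14 in zinc sulfate, -0.37 ± 0.18 in PM-LD, and -0.39 ± 0.18 in PM-L, and passed in none of them. These last comparisons hold no PM-HD or MSH array, but they share the saline arrays with each other and with the first ones.

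Other immediate early genes, which cells switch on within minutes of a stimulus, leaned to the same side. Of 25 measured, 22 had a negative and 3 a positive fold change (median -0.19), 3 passed with a lower level and none with a higher one, 12% against 2.73% of all genes in either direction. Of the 3, Jun and Ccn2 were bright and Fosl2 dim. Ccn2, the matricellular growth factor CTGF, had 1298, 1178, 1686, and 1934 in PM-HD and 1802, 2498, 2929, and 2156 in MSH, with PM-HD replicate 4 inside the MSH range. It passed at -0.64 ± 0.18. Fosl2, another AP-1 subunit, was dimmer at 55.4, 22.2, 113, and 45.7 in PM-HD and 132, 98.9, 88.4, and 142 in MSH, and PM-HD replicate 3 overlapped with MSH. It gave -0.84 ± 0.34, which did not pass without PM-HD replicate 2 (-0.61), PM-HD replicate 4 (-0.78), or MSH replicate 4 (-0.74). Egr1, the serum-induced zinc finger factor, averaged 499 ± 264 in PM-HD and 922 ± 351 in MSH and did not pass (-0.91 ± 0.46), nor did Atf3 (-0.86 ± 0.65), the orphan receptor Nr4a1 (-0.53 ± 0.26), or Klf6 (-0.44 ± 0.22). Fos itself was dim in both groups and did not pass (0.11 ± 0.77). The other members lay between -0.49 and 0.07.

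Clock genes leaned to the opposite side. The clock is the feedback loop by which Bmal1 and Clock drive their own repressors, Per and Cry, and the output factors Dbp, Tef, and Hlf through E-boxes. Of 14 clock genes measured, 3 passed with a higher level in PM-HD and none with a lower one (21.4%, against 2.73% of all genes), with a median of 0.34. All 3 were dim, where 5.07% of genes passed, and none of the 10 bright clock genes passed. The window before the start of Tef, at chr7:115206577-115206826 on the plus strand of GRCr8, is shown because Tef differed most and holds an E-box (CACGTG, the same on both strands, in capitals).
Tef: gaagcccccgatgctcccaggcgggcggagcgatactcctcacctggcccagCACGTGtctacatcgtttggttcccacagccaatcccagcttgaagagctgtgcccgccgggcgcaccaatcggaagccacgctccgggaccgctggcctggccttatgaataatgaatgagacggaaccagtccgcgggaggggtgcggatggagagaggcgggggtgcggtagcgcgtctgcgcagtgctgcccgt
An E-box stood in 5.79% of the 27457 windows, and in none of the same windows of Per3, Dbp, Nr1d1, and Nr1d2. The Mt2A window above held 1 as well, and none of these E-boxes overlapped a metal response core.

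Tef had signals of 176, 67.2, 102, and 93.3 in PM-HD, against 99.6, 8.7, 10.1, and 63.9 in MSH. The 2 lowest MSH hearts were near the floor, and MSH replicate 1 lay inside the PM-HD range. Tef gave 1.35 ± 0.46 on the log2 scale and passed without any 1 array. Hlf, the paralogous output factor, had 124, 129, 160, and 164 in PM-HD and 83.4, 87.9, 120, and 128 in MSH (0.49 ± 0.20). The signals of Hlf overlapped slightly, while its normalized values did not, and its other probe set, near the floor, gave 0.03 ± 0.33. Hlf did not pass without PM-HD replicate 2 (0.48), 3 (0.48), or 4 (0.45), or MSH replicate 1 (0.36) or 2 (0.43). Per3, a period repressor, was at 17.1, 13.7, 42.8, and 42.1 in PM-HD and 21.9, 10.4, 17.7, and 6.7 in MSH, near the floor of the array, where only PM-HD replicates 3 and 4 exceeded the MSH range (0.59 ± 0.23). It did not pass without PM-HD replicate 3 (0.45) or 4 (0.46), or MSH replicate 2 (0.54) or 4 (0.49).

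The bright clock outputs Dbp, Nr1d1, and Nr1d2 were higher on average in PM-HD without passing. Dbp, the best known output factor, had 542, 600, 228, and 793 in PM-HD and 224, 798, 245, and 154 in MSH. PM-HD replicate 3 lay among the low MSH hearts, and MSH replicate 2 was about as high as the highest PM-HD heart. The log2 fold change of 0.76 (95% interval -0.22 to 1.75) became 1.26 without MSH replicate 2 and 1.14 without PM-HD replicate 3, and passed in both cases. Nr1d1, the repressor REV-ERBα, had 843, 735, 431, and 1162 in PM-HD and 305, 874, 476, and 330 in MSH (0.72, -0.08 to 1.53), and passed without MSH replicate 2 (1.05) or PM-HD replicate 3 (1.00). Nr1d2, its paralog, gave 0.63 (-0.16 to 1.41) and passed without MSH replicate 2 (0.83). The activators Bmal1 (0.10 ± 0.22) and Clock (0.02 ± 0.17) did not pass, nor did Per1 (-0.58 ± 0.62) or the repressor Nfil3 (-0.30 ± 0.18), whose fold changes were negative.

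Both particle groups can be set beside saline for these outputs. Against saline, 3.32% of genes passed in PM-HD, 2.99% in MSH, 4.02% in zinc sulfate, 3.54% in PM-LD, and 3.85% in PM-L. Dbp was 1.45 ± 0.46 in PM-HD and 0.68 ± 0.46 in MSH against saline, with 2.35 ± 0.46 in zinc sulfate, 2.38 ± 0.42 in PM-LD, and 2.61 ± 0.42 in PM-L. Nr1d1 was 1.17 ± 0.38 in PM-HD, 0.44 ± 0.38 in MSH, 1.45 ± 0.38 in zinc sulfate, 1.56 ± 0.33 in PM-LD, and 1.65 ± 0.33 in PM-L. The MSH values did not pass, and the other 4 groups passed for both genes. All 5 comparisons share the saline arrays. Tef was 1.16 ± 0.46 in PM-HD and -0.18 ± 0.46 in MSH, with 0.79 ± 0.46 in zinc sulfate, 1.54 ± 0.42 in PM-LD, and 1.62 ± 0.42 in PM-L. Hlf differed from this pattern, at 0.01 ± 0.20 in PM-HD and -0.48 ± 0.20 in MSH, where it passed with a lower level. Its values were 0.15 ± 0.20 in zinc sulfate, -0.14 ± 0.19 in PM-LD, and 0.38 ± 0.19 in PM-L, and none of these passed.

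**Figure D3:**
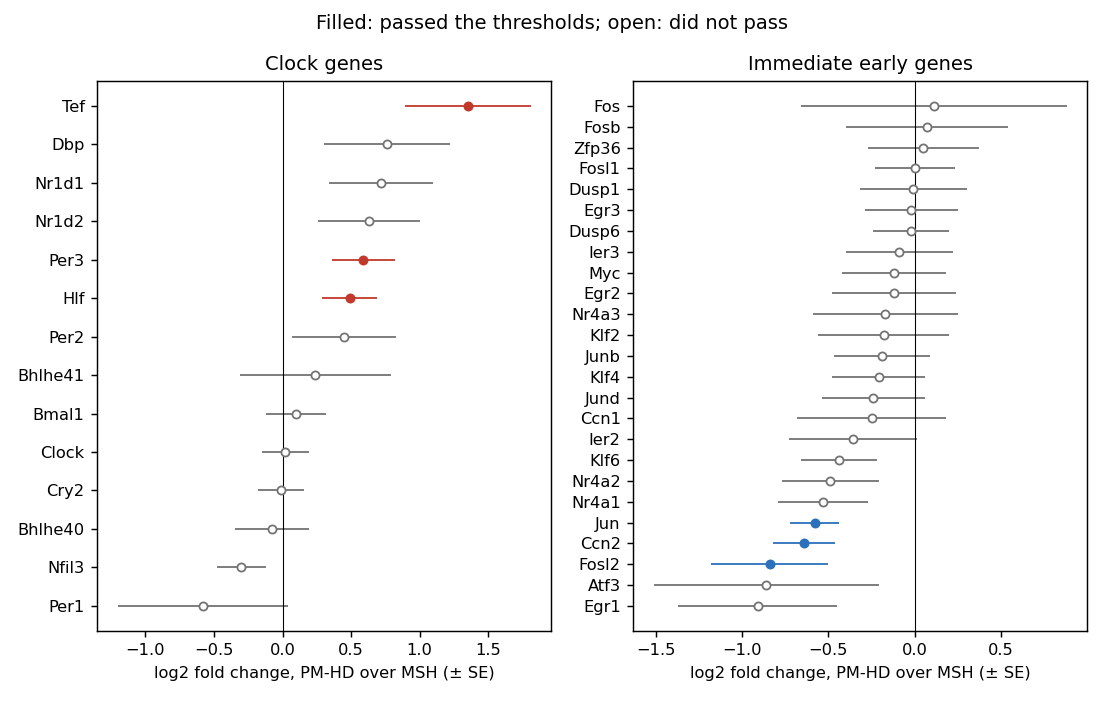
The log2 fold change of PM-HD over MSH with its SE (horizontal axis) for 14 clock genes and 25 immediate early genes (rows); filled points passed. Tef, Per3, and Hlf passed with higher levels in PM-HD, and Jun, Ccn2, and Fosl2 with lower levels.

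Genes of hypoxia and oxidative stress were listed because nickel is known to stabilise the hypoxia-inducible factor and metals can oxidize cells. Of 26 hypoxia-induced genes none passed (median 0.04). The largest were Ddit4, an inhibitor of mTOR signaling (0.82 ± 0.54, with 1954 ± 649 in PM-HD and 1132 ± 489 in MSH), and Pfkfb4 (-0.62 ± 0.36). Of 21 antioxidant enzymes under NRF2, none passed, and all lay between -0.29 and 0.20. Hmox1, heme oxygenase-1, averaged 198 ± 12.6 in PM-HD and 236 ± 51.4 in MSH (-0.17 ± 0.20). Nqo1, a quinone reductase, averaged 431 ± 70.4 and 397 ± 76.7 (0.14 ± 0.17). The 18 peroxide and superoxide enzymes also had none that passed (median -0.03).

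Of 27 heat shock proteins and chaperones, 1 passed with a higher and 1 with a lower level (7.41%, against 2.73% of all genes). The fold change was positive in 7 and negative in 20 (median -0.05). Pdia4, a disulfide isomerase of the endoplasmic reticulum, had 221, 257, 341, and 304 in PM-HD and 135, 164, 181, and 196 in MSH. The groups did not overlap (log2 fold change 0.74 ± 0.19). Against saline Pdia4 was 0.28 ± 0.19 in PM-HD and -0.46 ± 0.19 in MSH, where it passed. Dnaja1, a cochaperone of Hsp70, had 1139, 1218, 1158, and 1525 in PM-HD and 1609, 1464, 2361, and 1638 in MSH (-0.49 ± 0.19), and did not pass without MSH replicate 3 (-0.36). Its dimmer probe set gave -0.13 ± 0.13. Hspa1a, inducible Hsp70 (-0.17 ± 0.26), and Hsp90b1 of the endoplasmic reticulum (-0.01 ± 0.20) did not pass. Nor did Hspa5 (-0.28 ± 0.14) or Hsp90ab1, which averaged 9432 ± 3017 in PM-HD and 12916 ± 269 in MSH (-0.52 ± 0.31).

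Of 37 acute phase and inflammatory genes, 1 passed (2.70%, near the 2.73% of all genes, median 0.05). Serpina3n, an acute phase protease inhibitor, had 45.7, 9.3, 54.2, and 32.8 in PM-HD and 73.3, 85.6, 70.8, and 114 in MSH, so that every PM-HD heart was lower (-0.97 ± 0.33). Ceruloplasmin, Cp, averaged 99.0 ± 49.3 in PM-HD and 180 ± 25.8 in MSH without passing (-0.79 ± 0.41). Ifng, the cytokine interferon gamma, is not on this list and was named among the dim genes with the largest differences without overlap. It had 7.3, 2.4, 8.4, and 3.9 in PM-HD and 58.0, 37.7, 42.6, and 25.7 in MSH. The PM-HD values lay at the floor of the array, where the fold change on the log2(signal + 16) scale, -1.31 ± 0.37, depends on the added 16. Its signals ran from 9 to 62.7 in saline and from 8.7 to 81.7 in zinc sulfate. Against saline Ifng was -1.37 ± 0.37 in PM-HD and -0.06 ± 0.37 in MSH.

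Of 13 interferon-induced genes, 11 were positive and 2 negative (median 0.16), and 1 passed (7.69%, against 2.73% of all genes). Mx1, an antiviral GTPase, had 678, 391, 705, and 497 in PM-HD and 382, 266, 292, and 500 in MSH, with overlap (0.67 ± 0.29), and did not pass without PM-HD replicate 1 (0.57) or 3 (0.55) or MSH replicate 2 (0.54) or 3 (0.60). Its paralog Mx2 gave 1.05 ± 0.62. None of 19 MHC and antigen presentation genes passed (median 0.00). Among markers of blood cells, Cd8b, a chain of the CD8 coreceptor, was higher in PM-HD (179, 80.7, 194, and 128 against 78.6, 74.9, 38.5, and 107 in MSH, 0.92 ± 0.31). It was the only one of 10 lymphocyte markers that passed, and Cd3e gave -0.55 ± 0.42. Ncf1, a subunit of the phagocyte NADPH oxidase, had 98.9, 234, 148, and 115 in PM-HD and 108, 14, 80.8, and 81.1 in MSH (1.10 ± 0.51), and did not pass without PM-HD replicate 2 (0.84), 3 (1.11), or 4 (1.20) or MSH replicate 2 (0.66). It was the only one of 5 neutrophil markers that passed, and none of 10 macrophage markers did. In whole tissue, fewer cells of a type and less RNA per cell cannot be told apart.

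Genes of contraction, growth, and matrix gave single members. Acta2, smooth muscle actin and a member of the fetal program that stressed hearts take up again, had 764, 642, 1110, and 1508 in PM-HD and 1969, 1528, 1473, and 1295 in MSH, where only PM-HD replicate 4 reached the MSH range (-0.71 ± 0.24). Of 13 genes on this list, 12 were negative and 1 positive (median -0.27), and Acta2 was the only member that passed. The list also holds Myh6 and Atp2a2, adult genes that are known to fall in the fetal program, so its signs do not all point one way. Acta1, skeletal actin, averaged 6333 ± 1773 in PM-HD and 10222 ± 3447 in MSH (-0.67 ± 0.44), and Nppa, the atrial natriuretic peptide, 4209 ± 1284 and 7941 ± 4499 (-0.81 ± 0.55). Nppb (-0.10 ± 0.38), Myh7 (-0.02 ± 0.16), Myh6 (0.03 ± 0.11), and Atp2a2 (-0.02) did not pass. The lowest fold changes of the list, Myl7 at -2.37 ± 1.24 and Myl4 at -1.41 ± 1.03, belong to atrial light chains. The mean log2 value of 4 atrial transcripts (Myl7, Myl4, Sln, Nppa) was 8.36, 10.4, 7.92, and 8.75 in PM-HD and 11.4, 9.16, 10.3, and 10.1 in MSH (exact permutation test, two-sided, p = 0.114). None of 9 atrial markers passed (median -0.37), and their part in the fetal list was not tested. With the atrial level as a covariate, Nes (-0.56), Mx1 (0.53), and Fosl2 (-0.78) did not pass.

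Cacna1h, a T-type calcium channel, had 19.8, 88.2, 25.6, and 20.0 in PM-HD and 151, 128, 65.6, and 119 in MSH, with PM-HD replicate 2 inside the MSH range (-1.30 ± 0.47). It was the only one of 46 ion channel and transporter genes that passed, and with the atrial level as a covariate it gave -0.97 and did not pass. Against saline Cacna1h was -0.11 ± 0.47 in PM-HD and 1.19 ± 0.47 in MSH, where it passed. Mki67, the proliferation antigen Ki-67, had 35, 75.4, 52.4, and 27.0 in PM-HD and 152, 95.6, 124, and 112 in MSH. The groups did not overlap (log2 fold change -1.06 ± 0.25). Mki67 was the only one of 37 cell cycle genes that passed. Cdk1 (-0.42 ± 0.33) and Top2a (0.17 ± 0.25), which also mark dividing cells, did not. Against saline Mki67 was -0.12 ± 0.25 in PM-HD and 0.95 ± 0.25 in MSH, and it passed in MSH, zinc sulfate (0.91 ± 0.25), and PM-L (1.00 ± 0.37). Cdkn1a, the cell cycle inhibitor p21, averaged 1128 ± 161 in PM-HD and 1076 ± 193 in MSH (0.06 ± 0.17) and did not pass. Cyclin D1, Ccnd1, gave -0.14 ± 0.18 at its brightest probe set and -0.62 ± 0.34 and -0.28 ± 0.23 at the other two, and none passed. Ptprm (-0.11 ± 0.16), Egfr (0.16 ± 0.53), and Timp3 (0.15 ± 0.28) did not pass. Of 38 matrix genes, Ccn2 was the only one that did.

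None of 44 genes of fatty acid metabolism (median -0.01), 36 of electron transport and ATP synthase (median -0.07, 28 negative and 8 positive), and 18 of the tricarboxylic acid cycle (median -0.05) passed, where 1.01% of bright genes did. Fabp3, the heart fatty acid binding protein, had 29405, 27491, 28396, and 15576 in PM-HD and 25744, 27922, 23837, and 26195 in MSH (0.03 ± 0.22), with PM-HD replicate 4 far below the other 7 hearts. Glucocorticoid-induced genes (12, median 0.17), protein phosphatases (30, median -0.01), and muscle ubiquitin ligases (8, median 0.02) also had no member that passed.

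**Figure D4:**
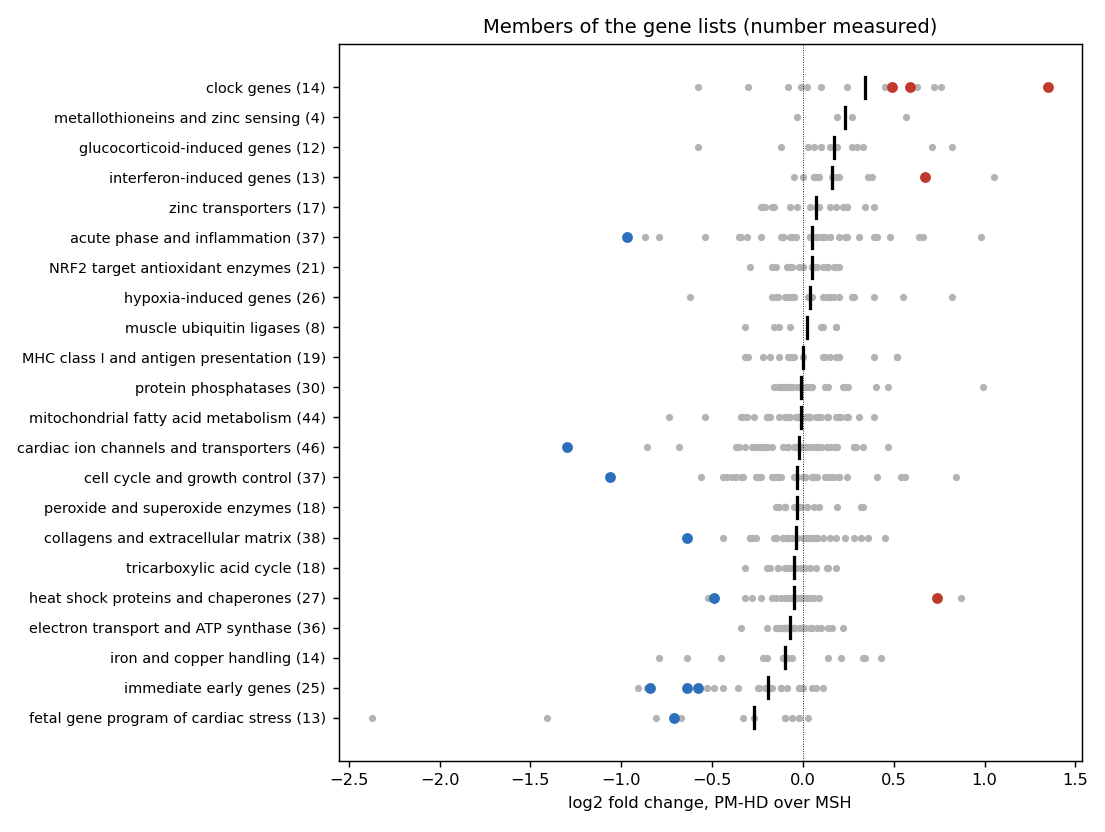
The log2 fold change of PM-HD over MSH (horizontal axis) for the measured members of 22 gene lists (rows, with the number measured). Red and blue points passed with higher and lower levels in PM-HD, grey points did not pass, and black bars are list medians; the clock list has the highest median (0.34) and the fetal list the lowest (-0.27).

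Over all genes, list members included, the groups did not overlap in 2.26%, and in 2.06% of bright genes. The bright genes described next are those with the largest differences that passed without overlap. Rcsd1, a regulator of actin capping in muscle, had 1373, 1311, 1463, and 1739 in PM-HD and 1083, 952, 962, and 1035 in MSH (0.54 ± 0.16). Llgl1, a cell polarity scaffold, averaged 430 ± 89.4 in PM-HD and 292 ± 52.3 in MSH (0.56 ± 0.19). Telo2, which helps to assemble kinases of the mTOR family, had 570, 462, 517, and 425 in PM-HD and 374, 372, 329, and 340 in MSH (0.48 ± 0.17). Enpp5, of the ectonucleotide pyrophosphatase family, had 438, 424, 500, and 519 in PM-HD and 384, 326, 340, and 384 in MSH (0.40 ± 0.13). These 4 of the 10 highest passed without any 1 array.

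The other 6 lost the call without some array. Fnbp1, which bends membranes during endocytosis, averaged 417 ± 91.7 in PM-HD and 297 ± 21.5 in MSH (0.49 ± 0.19) and did not pass without PM-HD replicate 4 (0.39) or MSH replicate 1 (0.42). Of its 5 other probe sets, 2 passed with higher levels (0.61 ± 0.28 and 0.63 ± 0.18). Arhgef17, an activator of RhoA, averaged 390 ± 27.6 and 284 ± 43.3 (0.48 ± 0.20) and did not pass without PM-HD replicate 2 (0.44) or 3 (0.47) or MSH replicate 1 (0.40) or 2 (0.43), and its other probe set gave -0.16 ± 0.22. Zfp423, a zinc finger transcription factor of fat precursor cells, averaged 473 ± 48.1 and 345 ± 64.5 (0.47 ± 0.20) and did not pass without PM-HD replicate 2 (0.39) or 4 (0.47) or MSH replicate 2 (0.34), and its other probe set gave -0.01 ± 0.18. Mad2l2, a subunit of translesion DNA polymerase, averaged 453 ± 52.6 and 339 ± 26.5 (0.43 ± 0.16), with 0.36 and no call without PM-HD replicate 3. Tmem150a, a membrane protein, averaged 850 ± 94.5 and 643 ± 79.9 (0.39 ± 0.14), with 0.32 and no call without PM-HD replicate 2. Rdx, radixin, which links actin to the membrane, averaged 1013 ± 98.9 and 783 ± 59.6 (0.37 ± 0.14) and did not pass without PM-HD replicate 2 (0.31) or MSH replicate 1 (0.32), and its dim second probe set gave -0.44 ± 0.44.

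Other bright genes were lower in PM-HD. Mon1a, part of the complex that activates Rab7 on endosomes, had 265, 252, 63.8, and 356 in PM-HD and 536, 428, 564, and 435 in MSH. PM-HD replicate 3 was far below the rest. Mon1a gave -1.20 ± 0.40 on the log2 scale, and -0.70 without that array, where it still passed. Gaa, the lysosomal enzyme that breaks down glycogen, had 1174, 961, 473, and 584 in PM-HD and 1314, 1185, 1527, and 1320 in MSH (-0.87 ± 0.35). It did not pass without PM-HD replicate 3 (-0.65) or 4 (-0.74) or MSH replicate 3 (-0.81), or with the atrial level as a covariate (-0.71).

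Gapdhs, the sperm form of the glycolytic enzyme, had 350, 290, 373, and 299 in PM-HD and 616, 701, 426, and 538 in MSH (-0.76 ± 0.19). Dcaf4, a substrate receptor of cullin ubiquitin ligases, averaged 254 ± 78.4 in PM-HD and 398 ± 51.8 in MSH (-0.64 ± 0.20), and Tmem263 577 ± 62.1 and 829 ± 59.9 (-0.52 ± 0.15). These 3, with Mon1a and Jun, passed without any 1 array. Against saline, Gapdhs was -0.27 ± 0.19 in PM-HD and 0.48 ± 0.19 in MSH, Dcaf4 -0.01 ± 0.20 and 0.63 ± 0.20, and Tmem263 -0.27 ± 0.15 and 0.25 ± 0.15. Nes, the intermediate filament nestin, averaged 526 ± 114 in PM-HD and 761 ± 49.5 in MSH (-0.54 ± 0.24) and passed only with all arrays or without PM-HD replicate 3, at -0.41 to -0.58 without each of the others. Htatip2, a redox-linked regulator of apoptosis, averaged 201 ± 84.5 and 325 ± 36.8 (-0.72 ± 0.28), with no call without PM-HD replicate 2 (-0.42) or MSH replicate 1 (-0.65). Cox14, an assembly factor of cytochrome c oxidase, averaged 959 ± 152 and 1337 ± 148 (-0.53 ± 0.20), with no call without PM-HD replicate 4 (-0.45). Stxbp2, which works in exocytosis, averaged 214 ± 52.9 and 304 ± 27.7 (-0.46 ± 0.20) and did not pass without PM-HD replicate 1 (-0.45) or 4 (-0.29) or MSH replicate 1 (-0.41), 3 (-0.44), or 4 (-0.48).

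**Figure D5:**
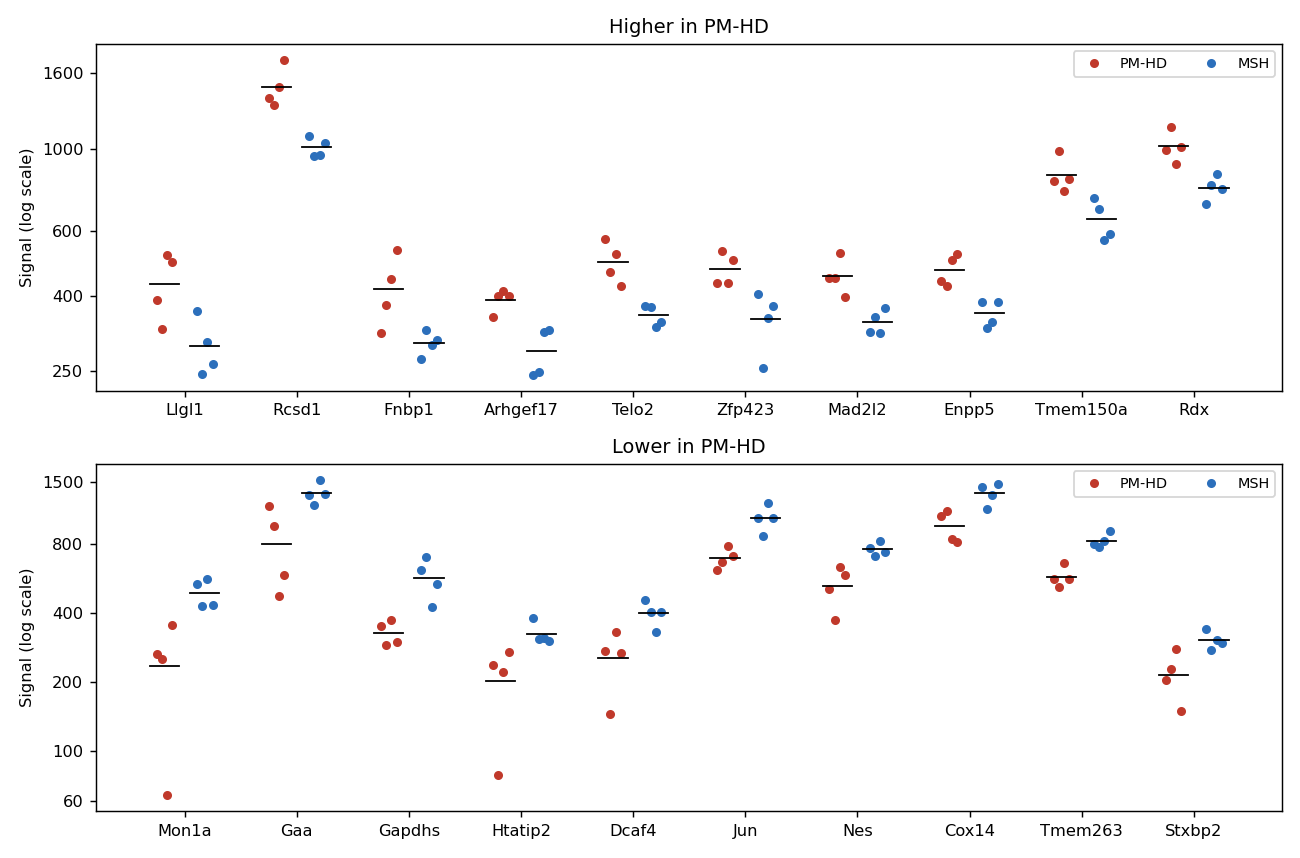
Signals (log vertical axis) of the 10 bright genes with the largest higher and lower values in PM-HD, PM-HD in red and MSH in blue; points are arrays and bars are means. Unnormalized signals of Llgl1, Fnbp1, Dcaf4, and Stxbp2 overlap, while their normalized values do not.

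Dim genes gave larger folds with less certainty. Gab2, a docking adaptor of growth factor receptors, had 100, 86.0, 112, and 110 in PM-HD and 29.0, 8.4, 60.2, and 15.2 in MSH, and every PM-HD heart was higher. Its log2 fold change was 1.61 ± 0.44, and against saline it was 1.32 ± 0.44 in PM-HD, -0.29 ± 0.44 in MSH, 0.54 ± 0.44 in zinc sulfate, 1.49 ± 0.44 in PM-LD, and 1.42 ± 0.44 in PM-L. It passed in PM-HD, PM-LD, and PM-L. Tnnt1, slow skeletal troponin T, had 57.8, 46.1, 57.8, and 37.3 in PM-HD and 9.7, 12.2, 6.8, and 23.3 in MSH, with no overlap between the groups. Of the 4 MSH hearts, 3 lay under 16, near the floor, so that its fitted fold of 2.37 is set by the pseudocount and understates the difference in signal. Zfp593, a zinc finger protein, averaged 87.7 ± 59.1 and 21.4 ± 14.9 (1.46 ± 0.38), Cacng6, a calcium channel subunit, 106 ± 23.7 and 40.8 ± 24.3 (1.24 ± 0.45), and Nrg2, a ligand of ErbB receptors, 57.0 ± 33.3 and 13.9 ± 4.73 (1.22 ± 0.45). Nrg2 did not pass without PM-HD replicate 4 (1.00), and its other probe set gave 0.15 ± 0.16.

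Igfbp2, which binds insulin-like growth factors, was lower in PM-HD, with 130, 53.8, 80.5, and 68.9 against 307, 236, 292, and 135 in MSH (-1.32 ± 0.36). Ssbp2, a cofactor of LIM-domain transcription complexes, had 12.6, 5.3, 6.8, and 6.8 in PM-HD, at the floor, and 32.4, 54.5, 46.6, and 64 in MSH (-1.35 ± 0.29). Dmrta1, a DM-domain factor, averaged 16.8 ± 7.93 and 93.5 ± 46.2 (-1.55 ± 0.42), and Kcnk13, a potassium leak channel, 29.8 ± 6.00 and 123 ± 78.3 (-1.35 ± 0.49). Kcnk13 did not pass without MSH replicate 1 (-1.04). When the arrays of high Gapdh ratio were left out, 18 of the 44 named genes that had passed no longer did, and all 44 kept their direction. Most of the 44 have groups that do not overlap. Their direction could not change, so it is no test of RNA quality. Of the 18, those with smaller differences than before were Gaa (-0.35), Cox14 (-0.19), Fnbp1 (0.21), Per3 (0.15), Stxbp2 (-0.31), Dmrta1 (-0.76), Kcnk13 (-0.70), Cacna1h (-0.70), Nrg2 (0.73), Hlf (0.37), Llgl1 (0.43), Arhgef17 (0.44), Rdx (0.36), and Gab2 (1.46). Enpp5 (0.41), Tnnt1 (1.50), Fosl2 (-0.96), and Cd8b (1.11) were as large or larger.

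The 499 probe sets were then read in comparisons that share no array with PM-HD or MSH. In zinc sulfate against saline, 267 (53.5%) had the same sign as in PM-HD against MSH, where 52.4% of all probe sets did, and 24 passed in the same and 26 in the opposite direction. In PM-LD against saline it was 273 (54.7%, 52.0% of all), with 21 and 15. In PM-L against saline it was 282 (56.5%, 54.3% of all), with 31 and 15. These 3 comparisons share the saline arrays with each other. Without PM-HD replicate 2, the share for zinc sulfate was 47.8% and that for PM-LD 48.2%.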

How the data were processed

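Array signals are linear intensity values that the authors made with MAS5, per the submitters' processing notes, and deposited for 24 arrays. Here they were quantile normalized and analysed as log2(signal + 16), a scale that understates differences of dim genes. After 57 control probe sets were left out, 15866 entered a linear model over the 16 arrays of saline, MSH, PM-HD, and zinc sulfate (limma 3.58.1, R 4.3.3). The number of arrays limits the precision. PM-LD and PM-L were fitted over all 24 arrays. The thresholds were those of the study (p under 0.05 and a difference of more than 25%), which applied them to RMA values. Benjamini-Hochberg adjustment covered all probe sets. Of these, 12783 had 1 gene symbol, 312 several, and 2771 none; 12774 matched RefSeq, and the brightest probe set stood for a gene. Named genes were the 10 bright and 5 dim genes per direction with the largest fold change that passed without overlap, up to 4 passing members of each list, metallothioneins, bright zinc transporters, and genes named in the text of the study. Members and lists were chosen with earlier results of these data known. Single genes were also tested by exact permutation of the 4 against 4 arrays. The scripts were tested on simulated data. Alternatives changed the pseudocount, normalization, signal filter, arrays fitted, prior, block, and covariates, and left out arrays. Each array was taken as 1 rat, because the study gives 4 biological replicates for each group.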

Additional observations from a re-analysis of the deposited data

Results flagged for a closer look

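In 7 of 144 groups of 4 arrays 1 array lay far from the other 3 (normalized log2 values), and chance alone flags about 1 in 20 groups. Mon1a was at 6.24 in PM-HD replicate 3, against 8.12 to 8.44 in the other PM-HD arrays. Zfp593 was at 7.47 in PM-HD replicate 3 (others 6.18 to 6.35). Tnnt1 was at 5.68 in PM-HD replicate 4 (others 6.12 to 6.20). Cacna1h was at 6.85 in PM-HD replicate 2 (others 5.12 to 5.33). Egfr was at 5.15 in PM-HD replicate 2 (others 6.74 to 7.07). Ncf1 was at 4.88 in MSH replicate 2 (others 6.56 to 6.73). Mt3 was at 7.64 in MSH replicate 3 (others 6.18 to 6.41).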

How the results depend on the processing

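The count of 499 probe sets became 275 with a mean signal of at least 100 and 949 without the arrays with a Gapdh ratio above 3. It ranged from 456 (without MSH replicate 1) to 619 (without PM-HD replicate 4) when 1 array was left out. The count at an adjusted p under 0.05 was 1 without the arrays of high Gapdh ratio (Abtb2) and 0 to 2 when 1 array was left out. List members that passed, 15 genes as reported, were 9 with a mean signal of at least 100, 28 over the 8 arrays alone, 25 with the Gapdh ratio as a covariate, 25 with the atrial level as a covariate, 40 without the arrays of high Gapdh ratio, and 16 to 29 when 1 array was left out. The share of same signs ranged from 47.8 to 59.0% for zinc sulfate, 48.2 to 58.4% for PM-LD, and 53.2 to 60.7% for PM-L when 1 array was left out.

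Genes that changed sign had not passed. With median centering, Mtf1 was 0.01, Slc39a13 0.03, Hsp90b1 0.05, and Fabp3 -0.03. With the atrial covariate, Slc39a13 was 0.02, Slc30a2 -0.03, Egfr -0.17, and Timp3 -0.01. Without the arrays of high Gapdh ratio, Mt1 was -0.08, Mt2A -0.24, Mt3 -0.67, Slc39a13 0.04, Slc39a14 -0.06, Cdkn1a -0.13, and Timp3 -0.22. With 1 array left out, the ranges were -0.22 to 0.03 for Ccnd1, -0.01 to 0.17 for Cdkn1a, -0.34 to 0.61 for Egfr, -0.06 to 0.21 for Fabp3, -0.18 to 0.15 for Hsp90b1, -0.29 to 0.54 for Mt2A, -0.23 to 0.52 for Mt3, -0.06 to 0.02 for Mtf1, -0.04 to 0.19 for Slc30a2, -0.12 to 0.07 for Slc39a13, -0.06 to 0.17 for Slc39a14, -0.06 to 0.17 for Slc39a7, and -0.05 to 0.35 for Timp3. The cause was not tested. With the replicate number as a block, 525 probe sets passed, of which 428 were among the 499. Deviations of arrays with the same number correlated at -0.088 to 0.128, so the numbers were taken as names. Calls were lost for Zfp423 (0.47), Nes (-0.54), Mx1 (0.67), Per3 (0.59), and Ncf1 (1.10) in 1 fit over all 24 arrays, where Nr1d1 (0.72) was gained, as it was with the Gapdh covariate (0.76). They were lost for Gaa (-0.77), Cox14 (-0.43), and Ncf1 (1.08) with median centering, for Stxbp2 (-0.38), Per3 (0.26), and Ncf1 (0.72) with a pseudocount of 64, for Zfp423 (0.47), Stxbp2 (-0.46), and Ncf1 (1.10) with the replicate block, and for Gaa (-0.71), Nes (-0.56), Mx1 (0.53), Cacna1h (-0.97), and Fosl2 (-0.78) with the atrial covariate. All 68 named genes kept their direction and call with a pseudocount of 1, over the 8 arrays alone, and with a trended robust prior. Dim signals limit the precision.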
